A study of Mus musculus with 19 samples.

Results

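FDCPmix cells, a mouse blood progenitor line that grows in interleukin-3, were compared at 23 h and at 3 h after treatment with tamoxifen, which binds the oestrogen receptor. The comparison used 7 of the 19 arrays of the study: the 4 arrays whose source label gives 3 h and the 3 whose source label gives 23 h. The remaining 12 arrays were treated cells with no stated time (4), cells at 7 h (4) and cells at 12 h (4). Replicate 2 at 23 h was not analysed here. Each array carried the RNA of the named time, here called the own RNA, against RNA labelled as treated cells at 0 h, so the reference drops out of the difference between 23 h and 3 h as far as it was the same RNA. The own RNA was in Cy5 on 3 h replicates 1 and 2 and on 23 h replicate 1, and in Cy3 on 3 h replicates 3 and 4 and on 23 h replicates 3 and 4.

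The labels give every group as treated FDCPmix cells and add the words ES cell line. They name no genotype, no dose and no construct on which tamoxifen would act, and they do not say whether replicates came from separate cultures, so p-values measure only the spread between these arrays. The protocols speak of organs and of a pool of control animals, so the reference was taken from the channel labels. A 2-colour ratio gives no level, so the presence of progenitor markers in these cells could not be checked. Values below are on a log2 scale, as the ratio of the named time to 0 h after centring each array on its median. Neither the log base nor the numerator is stated in the labels, and the own RNA is taken as the likely numerator because the series compares time points versus 0 h. Where the Cy3 columns run the other way, differences change as given beside the results.

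On 2 arrays the values went against their labels or stood apart. On 23 h replicate 3 the deposited median was 0.233, against 0 and 0.003 on the other 23 h arrays. Over all features, the Spearman correlation of 23 h replicate 3 was -0.25 with replicate 1, in the other dye, and -0.15 with replicate 4, in the same dye. Replicates 1 and 4, in different dyes, had 0.10. At other times, pairs in different dyes ran from 0.056 to 0.092 at 3 h, from -0.078 to 0.064 at 7 h and from -0.20 to -0.049 at 12 h. Features beyond 0.5 in one direction on both other 23 h arrays had the opposite sign on 23 h replicate 3 for 80 of 115, on replicate 1 for 49 of 73 and on replicate 4 for 38 of 69, so this count did not set replicate 3 apart. On 7 h replicate 4, which enters the estimate of the spread and of the dye term, a value repeated on 15 spots was 16.291, positive although the own RNA was in Cy3, where the other Cy3 arrays of the time course had a negative one. Results that rest on these arrays are given with and without them.

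Cells that lack oxygen stabilise the transcription factor HIF-1, which binds the letters ACGTG near its target genes and raises glucose transporters, glycolytic enzymes and mitochondrial proteins such as Bnip3. Myeloid progenitors fill their granules with proteases and antimicrobial proteins in a fixed order: myeloperoxidase and elastase come early, and lactoferrin and cathelicidin later. Their promoters often hold purine-rich GAGGAA elements, the core bound by PU.1.

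Promoters of 4 genes from these 2 groups are shown because the results turn on these groups. Each is the 250 bases before the start of the gene, from RefSeq on GRCm38.p6, read 5′ to 3′ on the gene's strand. Capitals mark ACGTG or its reverse complement CACGT for Bnip3 (chr7:138909507-138909756, minus strand) and Selenbp1 (chr3:94932833-94933082, plus strand). They mark GAGGAA for Mpo (chr11:87793534-87793783, plus strand) and Elane (chr10:79886062-79886311, plus strand).
Bnip3: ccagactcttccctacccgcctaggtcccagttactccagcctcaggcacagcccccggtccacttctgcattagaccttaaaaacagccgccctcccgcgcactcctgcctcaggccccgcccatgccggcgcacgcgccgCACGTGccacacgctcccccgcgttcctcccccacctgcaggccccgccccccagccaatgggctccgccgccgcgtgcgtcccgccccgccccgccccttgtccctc
Selenbp1: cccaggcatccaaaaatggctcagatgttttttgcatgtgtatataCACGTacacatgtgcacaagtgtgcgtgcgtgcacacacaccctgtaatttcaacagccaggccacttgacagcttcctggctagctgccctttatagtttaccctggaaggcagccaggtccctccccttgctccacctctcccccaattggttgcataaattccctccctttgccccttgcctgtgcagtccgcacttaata
Mpo: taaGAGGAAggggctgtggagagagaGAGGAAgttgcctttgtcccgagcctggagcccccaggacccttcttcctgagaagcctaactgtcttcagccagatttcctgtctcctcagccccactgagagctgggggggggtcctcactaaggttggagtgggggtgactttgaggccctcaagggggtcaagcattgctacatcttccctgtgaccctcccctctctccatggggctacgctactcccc
Elane: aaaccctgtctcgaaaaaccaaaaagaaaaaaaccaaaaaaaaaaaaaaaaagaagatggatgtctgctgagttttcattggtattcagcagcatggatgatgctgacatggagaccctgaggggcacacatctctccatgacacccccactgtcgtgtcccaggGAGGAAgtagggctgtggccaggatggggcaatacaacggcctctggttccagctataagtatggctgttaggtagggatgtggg
Searched on both strands, ACGTG was in 16.6% of 32851 mouse promoters of this length. Among genes with a promoter entry, it was found for 13 of 15 genes of the hypoxia list outside glycolysis, Selenbp1 included. It was found for 8 of 15 glycolysis genes and 1 of 12 neutrophil granule genes. A gene was counted if any of its promoter entries matched, while the shares over all promoters count each entry. The 2 kinds of share are therefore not directly comparable. GAGGAA was in 23.3% of all promoters, in 7 of 12 of the neutrophil granule genes, and in 5 of 15 of each of the other groups. In the Bnip3 promoter the palindrome CACGTG holds the match on both strands, and these letters overlap. A match is only a match of letters.

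Across the array, no gene passed the test at 23 h against 3 h. Of 16087 features tested by limma (group means with a dye term on 15 time-course arrays), 0 (0%) had an adjusted p under 0.05 after Benjamini-Hochberg adjustment, and the smallest adjusted p was 0.869. At an unadjusted p under 0.05 there were 878 (5.46%), 395 higher (2.46%) and 483 lower (3%) at 23 h. The 3 and 4 arrays did not overlap for 537 features higher at 23 h (3.34%) and 555 lower (3.45%). Without 23 h replicate 3, 0 of 16024 features were called, 1350 (8.42%) had an unadjusted p under 0.05, 612 higher (3.82%) and 738 lower (4.61%), and the smallest adjusted p was 0.217. Arrays then did not overlap for 1535 features higher at 23 h (9.58%) and 1637 lower (10.2%). An exact permutation of 4 against 3 arrays cannot give a two-sided p below 0.0571, so no test of a single gene was made by permutation. The median SD between arrays was 0.15 at both times, and 0.11 at 23 h without replicate 3. These rest on 4, 3 and 2 arrays, so they are not directly comparable.

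Genes of the hypoxia response outside glycolysis stood mostly higher at 23 h, and Bnip3 and Ndrg1 had the 2 largest differences among the members of the 6 lists described. Of 26 listed, 19 were measured: 15 stood higher and 4 lower at 23 h, with a median difference of 0.22 against 0.00 over all features. With signs as deposited, the list's median on single arrays ran from -0.54 to -0.27 at 3 h and from -0.085 to 0.043 at 23 h. The group was thus low at 3 h and near the 0 h level at 23 h. The arrays of 7 of the 19 did not overlap, all higher at 23 h, beside 3.34% of all features, and 5 had an unadjusted p under 0.05, all higher, beside 2.46%. None of the 19 was called. Both counts include Selenbp1 and Selenbp2, whose spots may share signal. Whether these 2 genes respond to low oxygen in these cells was not tested. The list was chosen with earlier results of these data known. Without 23 h replicate 3 the median was 0.16, with 14 higher and 5 lower. With the sign of every Cy3 array changed the median was -0.20, so the direction over both dyes rests on the reading of the Cy3 signs. Within Cy5 arrays, which that change leaves as they are, the median difference of group means was 0.158, with 1 array at 23 h.

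Bnip3, which drives the removal of mitochondria and cell death, had log2 ratios of -1.09, -1.01, -1.74 and -1.69 on 3 h replicates 1 to 4. At 23 h they were -0.14, -0.23 and -0.36 on replicates 1, 3 and 4. Every 3 h array was below every 23 h array, and 23 h replicate 3 lay between the other arrays of its time. The difference was 1.21 (SE 0.35, limma adjusted p = 0.869), 1.13 without 23 h replicate 3, 0.91 within Cy5 arrays and 1.42 within Cy3 arrays. With the Cy3 signs changed it was -0.35. Between these times, Bnip3 stood at 0.12, -0.32, -1.005 and 0.96 on 7 h replicates 1 to 4 and at 0.16, 0.16, -0.62 and -0.87 on 12 h replicates 1 to 4. The array in doubt at 7 h had the highest value.

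Ndrg1, a stress-induced cytoplasmic protein raised in low oxygen, stood at -1.20, -0.86, -1.29 and -1.25 on the 3 h arrays. Its 23 h values were 0.03, -0.01 and -0.13, all close to 0. These groups did not overlap, and the difference of 1.11 (SE 0.43, limma adjusted p = 0.869) was 1.06 within Cy5 and 1.20 within Cy3. At 7 h the first 3 arrays still stood at -0.90, -1.22 and -1.40, with 1 on replicate 4, and at 12 h the arrays ran from -0.79 to -0.13. With the Cy3 signs changed the difference was -0.27. Ndrg1 has no promoter entry in the table used here.

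Selenbp1, a selenium-binding protein that oxidises methanethiol, had 3 h values of -0.75, -1.09, -0.61 and -1.35. At 23 h it stood at 0.14, 0.00 and -0.09, and no array of one time reached into the other. The difference was 0.95 (SE 0.31), and 0.98 without 23 h replicate 3. Selenbp2, its close copy, had -0.58, -1.02, -1.29 and -1.33 at 3 h and -0.20, 0.22 and -0.28 at 23 h, a difference of 0.95 (SE 0.41). The sequences are near-identical in mouse, so spots of the 2 genes may share signal. With Cy3 signs changed the differences were -0.096 and -0.46.

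Fam162a, a mitochondrial protein that responds to HIF-1, had values of -0.58, -0.54, -1.19 and -0.54 at 3 h against 0.24, -0.06 and 0.11 at 23 h. The groups were apart by 0.81 (SE 0.30) and did not overlap. Higd1a, a mitochondrial protein induced in low oxygen, had a difference of 0.32, and Vegfa, the growth factor for blood vessels, one of 0.33. Neither overlapped between the times, but Vegfa stood at 0.41 on 23 h replicate 3 and its difference was 0.17 without that array. For Bnip3l, the relative of Bnip3, the 3 h arrays ran from -0.58 to 1.54 and overlapped the 23 h arrays, with a difference of 0.53. Ddit4, an inhibitor of mTORC1, differed by 0.37 and also overlapped. The factor itself, Hif1a, differed by -0.023, and Hmox1, haem oxygenase, by -0.17, the lowest of the list, and by -0.31 without 23 h replicate 3.

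**Figure D1:**
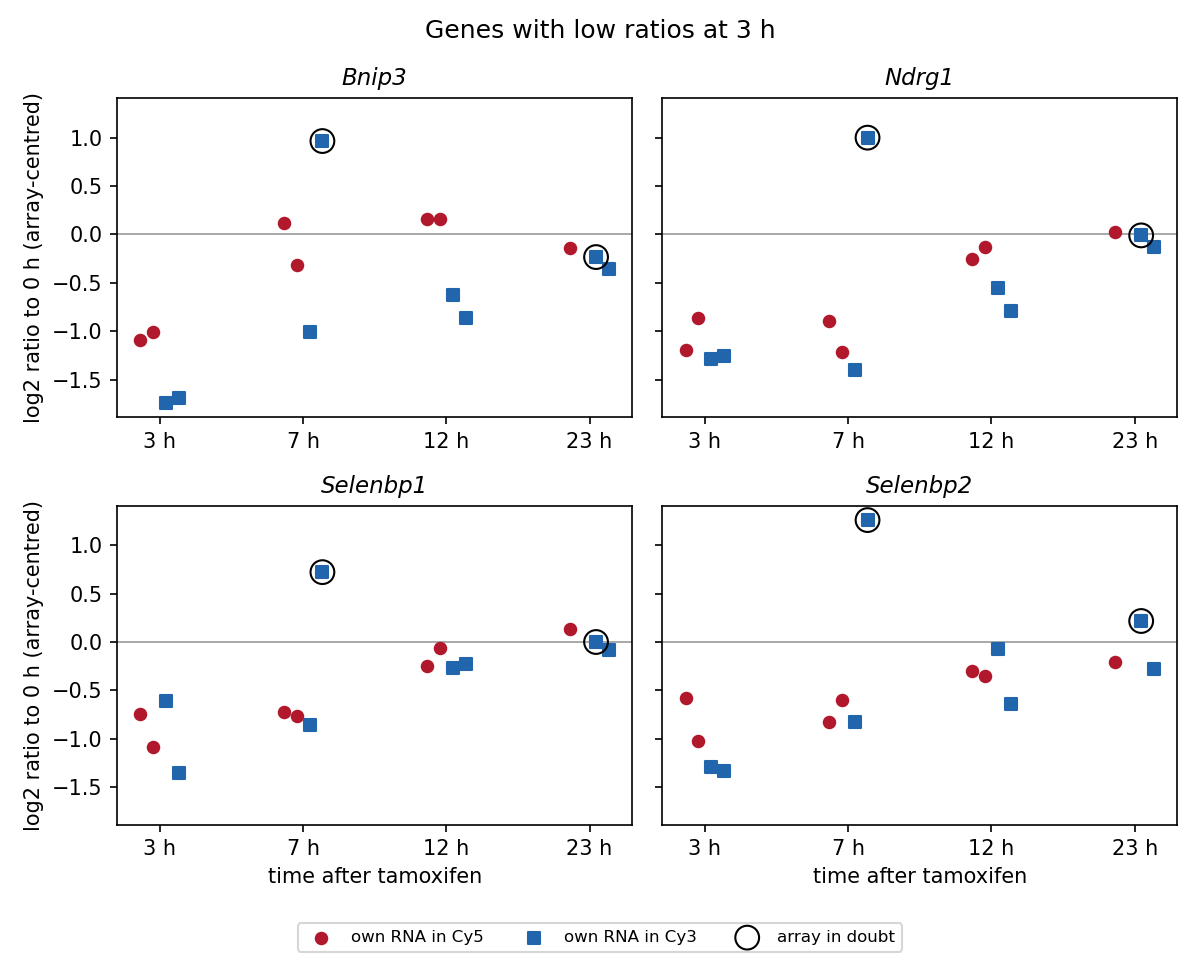
Log2 ratio to 0 h (y axis) of 4 genes at each time after tamoxifen (x axis), 1 point per array, red circles with the own RNA in Cy5 and blue squares in Cy3; circled arrays are 7 h replicate 4 and 23 h replicate 3. The 3 h arrays of Bnip3 lie between -1.74 and -1.01 and the 23 h arrays between -0.36 and -0.14, with no overlap in any panel.

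Glycolysis and glucose uptake genes stood higher at 23 h for every one of the 16 measured of 23 listed, beside 50% of all features. Their median difference was 0.29, and 0.24 without 23 h replicate 3, where 15 of 16 stood higher, beside 50.7% of all features. The arrays of 5 did not overlap, all higher (beside 3.34% of all features), and 2 had an unadjusted p under 0.05, both higher (beside 2.46%). With Cy3 signs changed the median was -0.14, and none was called under either reading. On single arrays with signs as deposited, the list's median ran from -0.40 to -0.21 at 3 h and from -0.105 to 0.048 at 23 h. This list too was low at 3 h and near the 0 h level at 23 h.

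Pgm1, which links glycogen and glycolysis, had the largest difference of this list, 0.65 (SE 0.23). Its 3 h values were -0.65, -0.16, -1.03 and -0.99 and its 23 h values -0.05, 0.02 and -0.30, so replicate 2 at 3 h reached into the 23 h range. Slc2a3, a glucose transporter, stood at -0.42, -0.47, -0.43 and -1.03 against -0.39, 0.15 and -0.12, without overlap but with only a small gap. The difference of Slc2a3 was 0.46, and 0.051 within Cy5 against 0.74 within Cy3. Aldoa, fructose-bisphosphate aldolase, had 3 h values between -0.59 and -0.40 and 23 h values of -0.14, 0.07 and -0.19, a difference of 0.43 (SE 0.25). Tpi1, triosephosphate isomerase, had -0.38, -0.40, -0.54 and -0.59 against -0.10, -0.29 and -0.08, a difference of 0.35. Gapdh and Pkm, enzymes further down the pathway, differed by 0.33 and 0.36, both without overlap. Gapdh has many processed copies in the genome, so its spots are less certain.

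The arrays of the other members overlapped. Pfkl, a phosphofructokinase, differed by 0.39, Eno2, an enolase, by 0.32, and Pgam1, phosphoglycerate mutase, by 0.26. Within Cy5 arrays Pgam1 differed by -0.0125 and within Cy3 arrays by 0.43. The hexokinases Hk1 and Hk2 differed by 0.14 and 0.17, and the lactate exporter Slc16a3 by 0.0015 (-0.17 without 23 h replicate 3). Within dyes, the list's median was 0.22 for Cy5 and 0.37 for Cy3. Only 10 of the 16 had the same sign in both dyes, beside 50.5% of all features.

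Sterol and fatty acid synthesis genes, which SREBP factors switch on together, had a median difference of 0.15, and 0.11 without 23 h replicate 3. Of 30 listed, 19 were measured, 15 stood higher (beside 50% of all features) and 4 lower, and 4 did not overlap, all higher (beside 3.34%). The median was 0.087 without 3 h replicate 3, 0.047 within Cy5 arrays and 0.22 within Cy3 arrays, so it moved with single arrays and dye. Scd2, a stearoyl-CoA desaturase, stood at -0.57, -0.33, -0.46 and -0.60 at 3 h and at -0.15 on each of the 23 h arrays, a difference of 0.34 (SE 0.14). Fdps, which makes farnesyl diphosphate, had -0.40, -0.66, -0.42 and -0.45 against -0.36, 0.30 and -0.25, and its difference of 0.36 became 0.18 without 23 h replicate 3. Fdft1, which commits farnesyl diphosphate to sterols, differed by 0.79 with values from -1.40 to 0.91 at 3 h and from -1.23 to 2.05 at 23 h, so its arrays spread wider than the difference, which was 1.72 without 23 h replicate 3. Elovl6, a fatty acid elongase, was the lowest of the list at -0.054, and 0.020 with no centring.

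Neutrophil granule genes were where the 23 h arrays disagreed among themselves. Of 22 listed, 14 were measured, and 11 stood lower at 23 h with a median difference of -0.21. Without 23 h replicate 3 the same number stood lower, the median was -0.76, and the arrays of none of the 14 overlapped: 11 lay lower (beside 10.2% of all features) and 3 higher (beside 9.58%). Of the lower ones, 9 had an unadjusted p under 0.05, beside 4.61% of all features. Without 23 h replicate 1 the median was 0.084, and without replicate 4 it was 0.15. With the sign of every Cy3 array changed it was -0.35, and 0.055 without 23 h replicate 3 as well. None of the 14 was called in any of these fits. The list's median on single arrays was -0.82 on 23 h replicate 1, 0.73 on replicate 3 and -0.92 on replicate 4, against -0.18 to -0.078 at 3 h. Where values were lower, as on 23 h replicates 1 and 4, bulk RNA cannot tell fewer expressing cells from less RNA per cell.

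Mpo, myeloperoxidase, had 3 h values of -0.09, -0.20, -0.12 and 0.02. At 23 h it stood at -0.90 on replicate 1 and -0.92 on replicate 4, and at 0.88 on replicate 3. The last lay above every 3 h array and the first pair below all of them. Its difference was -0.24 (SE 0.32), and -0.81 (SE 0.12, limma adjusted p = 0.217) without 23 h replicate 3. Elane, neutrophil elastase, gave -0.08, -0.06, -0.10 and -0.15 at 3 h and -0.78, 1.04 and -1.10 on 23 h replicates 1, 3 and 4. Without replicate 3 its difference was -0.85 (SE 0.17, limma adjusted p = 0.411).

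Genes of the later granules showed the same split. Ltf, lactoferrin, stood between -0.26 and -0.06 at 3 h, and at -1.18, 0.97 and -1.34 at 23 h. Camp, the cathelicidin precursor, stood at -1.04, 1.13 and -1.36 and Ngp, neutrophilic granule protein, at -1.05, 1.09 and -1.14 on those arrays. Mmp8, neutrophil collagenase, had -0.95, 1.19 and -1.26, with 3 h values from -0.30 to 0.01. Lyz2, lysozyme of macrophages and neutrophils, had -0.95, 1.08 and -1.05, with 3 h values from -0.29 to -0.10. In each of these genes replicate 3 lay above the 3 h arrays and replicates 1 and 4 lay below them. Lcn2, S100a8 and S100a9, which bind iron carriers or calcium, differed by -0.40, -0.63 and -0.49 without replicate 3, against -0.064, -0.30 and -0.085 with it.

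A few members did not follow that split. Prtn3, proteinase 3, had values of -0.19, -0.29, 0.09 and -0.17 at 3 h and 0.09, 0.32 and 0.10 at 23 h, a difference of 0.30 (SE 0.14). Its arrays were all higher at 23 h by a narrow margin. Mmp9, gelatinase B, and Cebpe, the factor for late granules, differed by 0.066 and 0.093. These 3 are the members whose arrays lay higher at 23 h without overlap once replicate 3 was left out. At 7 h and 12 h, leaving out 7 h replicate 4, the values of Lyz2 ran from -0.43 to -0.37 and from -0.98 to -0.58. On 7 h replicate 4 Lyz2 stood at 0.55, also opposite to its group.

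**Figure D2:**
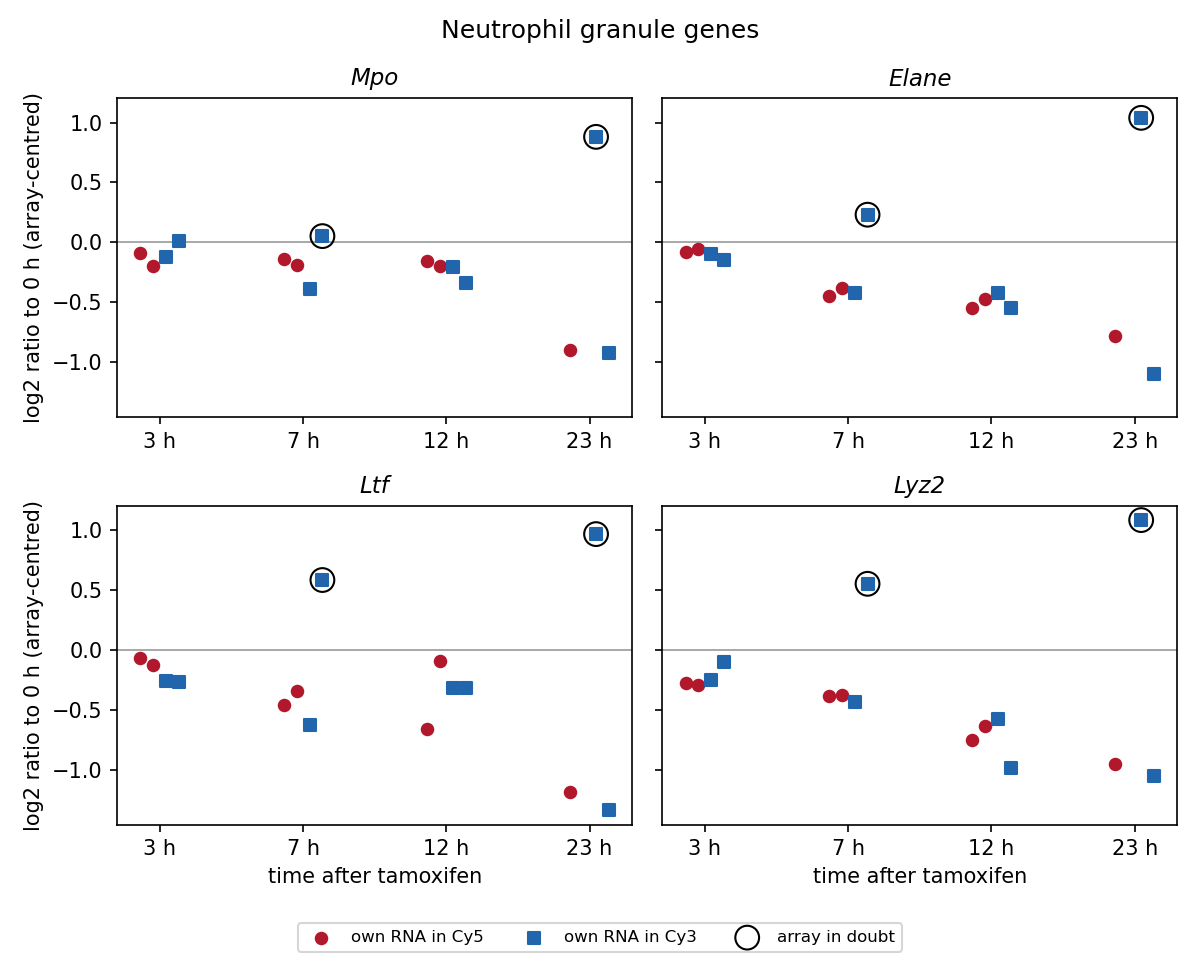
Log2 ratio to 0 h (y axis) of 4 granule genes at each time after tamoxifen (x axis), 1 point per array, red circles with the own RNA in Cy5 and blue squares in Cy3; circled arrays are 7 h replicate 4 and 23 h replicate 3. At 23 h Mpo lies at -0.90 and -0.92 on replicates 1 and 4 and at 0.88 on the circled replicate 3.

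Leaving out arrays in doubt brought the calls of this comparison. Without 7 h replicate 4 alone, 3 features were called (limma, 16087 tested): Ndrg1 rose by 1.16 (adjusted p = 0.00737), Bnip3 by 1.25 (adjusted p = 0.0241) and probe 1098, which has no gene symbol here, by 1.13 (adjusted p = 0.0241). Without 7 h replicate 4 and 23 h replicate 3, 13 features were called of 16024, 7 higher and 6 lower at 23 h. The 6 that fell in that fit were all granule genes, with differences of -0.81 for Mpo, -0.85 for Elane, -1.08 for Ltf, -0.96 for Camp, -0.92 for Ngp and -0.77 for Lyz2 and adjusted p from 0.0121 to 0.0441. The 7 that rose were Bnip3, Ndrg1, Glud1, Hs1bp3, Slc27a5 and probes 1098 and 4510. Several of these features were named after their values had been seen, and the arrays left out were picked partly for how their values ran. The 23 h group then holds 1 Cy5 and 1 Cy3 array. With the sign of every Cy3 array changed, 0 features were called with all arrays (912 at an unadjusted p under 0.05) and 0 without 23 h replicate 3 (811).

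Glud1, glutamate dehydrogenase, which feeds glutamate into the citric acid cycle, had 3 h values of 0.08, 0.02, 0.33 and 0.37. At 23 h it stood at 1.16 and 1.53 on replicates 1 and 4 and at -1.60 on replicate 3. Its difference was 0.24 with all arrays and 1.15 without 23 h replicate 3. Hs1bp3, a binding partner of the blood-cell protein HS1, stood at 1.005, -1.13 and 1.15 on 23 h replicates 1, 3 and 4, with 3 h values from 0.07 to 0.25. Slc27a5, an acyl-CoA synthetase of bile acid and fatty acid uptake, had 0.93, -0.88 and 1.23, with 3 h values from -0.18 to 0.12. These genes mirrored the granule genes: replicates 1 and 4 lay above the 3 h arrays and replicate 3 below. At 7 h, replicate 4 was likewise opposite, with Glud1 at -1.24 against 0.93 to 1.13 on the rest of that time. At 12 h Glud1 stood between 0.9985 and 1.38 on all 4 arrays.

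**Figure D3:**
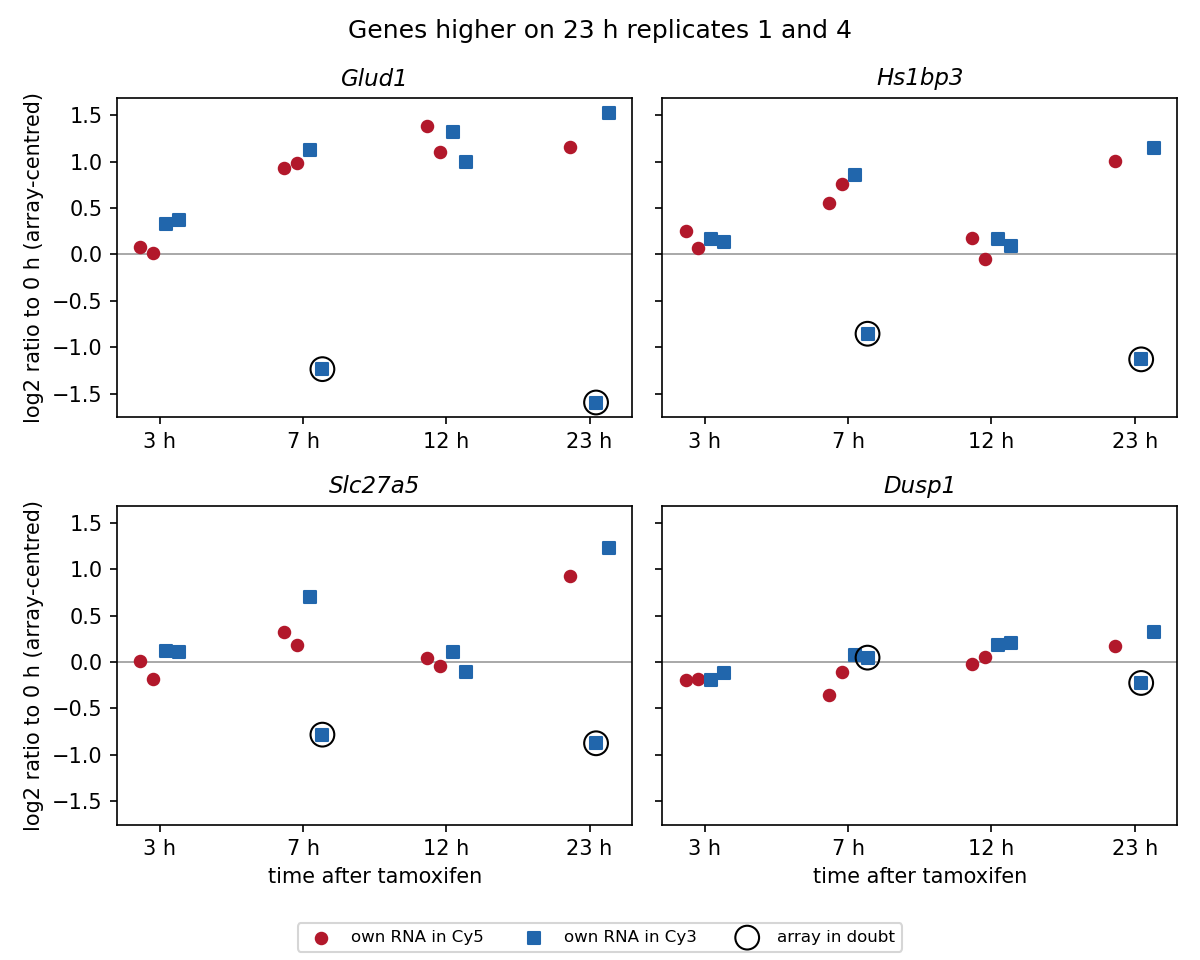
Log2 ratio to 0 h (y axis) of 4 genes that stood higher on 23 h replicates 1 and 4, at each time after tamoxifen (x axis), 1 point per array, red circles with the own RNA in Cy5 and blue squares in Cy3. Glud1 lies at 1.16 and 1.53 on 23 h replicates 1 and 4 and at -1.60 on the circled replicate 3; the other circled array is 7 h replicate 4.

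Genes of the unfolded protein and amino acid stress responses stood mostly lower at 23 h. Of 41 listed, 34 were measured, 25 lower (beside 50% of all features) and 9 higher, with a median difference of -0.095. The median was -0.15 without 23 h replicate 3, -0.039 without 23 h replicate 1, -0.054 without 23 h replicate 4, -0.062 without 3 h replicate 1 and -0.063 without 3 h replicate 2. With no centring it was -0.021, and with the sign of every Cy3 array changed -0.036. None was called, and 2 had an unadjusted p under 0.05, both lower, beside 3% of all features. Without 23 h replicate 3 the arrays of 9 did not overlap with 23 h lower, beside 10.2% of all features. In fits to 1 dye only, the median was -0.20 for Cy5 arrays and 0.0065 for Cy3 arrays. As differences of group means it was -0.20 and -0.0185, so the 2 dyes did not give the same value. Phgdh, the first enzyme of serine synthesis, had 0.30, 0.24, 0.11 and -0.06 at 3 h and -0.18, 0.11 and -0.31 at 23 h, a difference of -0.26 (SE 0.11). Asns, asparagine synthetase, differed by -0.81 (SE 0.49), with 3 h values from -0.87 to 0.50 that overlapped the 23 h values of -1.43, -0.23 and -0.65. Nupr1, a stress-induced nuclear protein, differed by -0.58, most of it from -1.33 on 23 h replicate 1, since replicates 3 and 4 stood at 0.01 and -0.09. Ddit3 (CHOP) differed by -0.29 and Xbp1 by -0.28. The ER chaperone Hspa5 differed by -0.015, and by -0.26 without 23 h replicate 3, and the regulator Atf4 by 0.054, while Trib3, an ATF4 target, differed by 0.35 with 0.57 on 23 h replicate 3, and by 0.16 without it. Vegfa belongs to this list and to the hypoxia list.

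Ribosome biogenesis genes, which process ribosomal RNA in the nucleolus, were lower for 20 of the 31 measured of 39 listed (beside 50% of all features), with a median of -0.057. Without 23 h replicate 3 the median was -0.051. Only 10 of the 31 had the same sign in both dyes, beside 50.5% of all features. Nop58, a core protein of the particles that methylate ribosomal RNA, had 0.23, 0.45, 0.33 and 0.25 at 3 h and -0.33, -0.11 and -0.16 at 23 h. No array overlapped, and the difference was -0.51 (SE 0.11, limma adjusted p = 0.869), with -0.67 within Cy5 and -0.42 within Cy3. Ddx56, a nucleolar RNA helicase, differed by -0.26 without overlap, and Bop1, of the large subunit pathway, by -0.30 with overlap. Nucleolar proteins of high abundance, Npm1, Ncl and Fbl, differed by 0.010, -0.0039 and 0.015, and Ncl by -0.16 without 23 h replicate 3. Nolc1, a nucleolar chaperone, was on the other side at 0.23.

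Single genes with the smallest p among those whose arrays did not overlap were chosen by the naming rule, 8 in each direction. All 16 had a limma adjusted p of 0.869, so they are given as values and none was called. Spock1, a secreted proteoglycan, had -1.18, -1.87 and -2.87 on the 3 h arrays with a value and 0.54, 1.99 and 0.05 at 23 h, a difference of 2.81 (SE 0.55). Nsrp1, a splicing regulator, differed by 2.57 and Arfrp1, a Golgi GTPase, by 2.35, but 3 h values of both ran widely, from -3.54 to 0.07 and from -2.61 to 0.14. Arfrp1 had only 2 arrays at 23 h. Ms4a1, the B-cell antigen CD20, differed by 0.92, and 0.59 without 23 h replicate 3, where it stood at 1.23. Smaller differences were those of Trim47, a ubiquitin ligase (0.68), Parp16, an ADP-ribosyltransferase of the ER (0.45), Lmf1, a lipase maturation factor (0.42), and Cep63, a centrosome protein (0.32). Trim47 stood at -0.60 and -0.30 on the Cy5 arrays at 3 h and at 0.37 on both Cy3 arrays.

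Among those lower at 23 h, Hmgn2, a nucleosome-binding protein, had 0.26, 0.34, 0.10 and 0.12 against -0.12, -0.13 and -0.29, a difference of -0.36 (SE 0.08). Idh3g, a subunit of mitochondrial isocitrate dehydrogenase, differed by -0.57 and Glo1, glyoxalase 1, by -0.53. Serpina1d, an alpha-1 antitrypsin, differed by -0.49, but it has near-identical neighbours in mouse and its spot may read them too. Wnk4, a kinase of salt transport, differed by -0.45, Mmp11, a stromelysin, by -0.28, and Bod1, a chromosome orientation factor, by -0.27. With the Cy3 signs changed, Spock1, Arfrp1, Ms4a1, Cep63, Hmgn2, Bod1, Wnk4 and Mmp11 took the opposite direction, and the other 8 kept theirs.

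**Figure D4:**
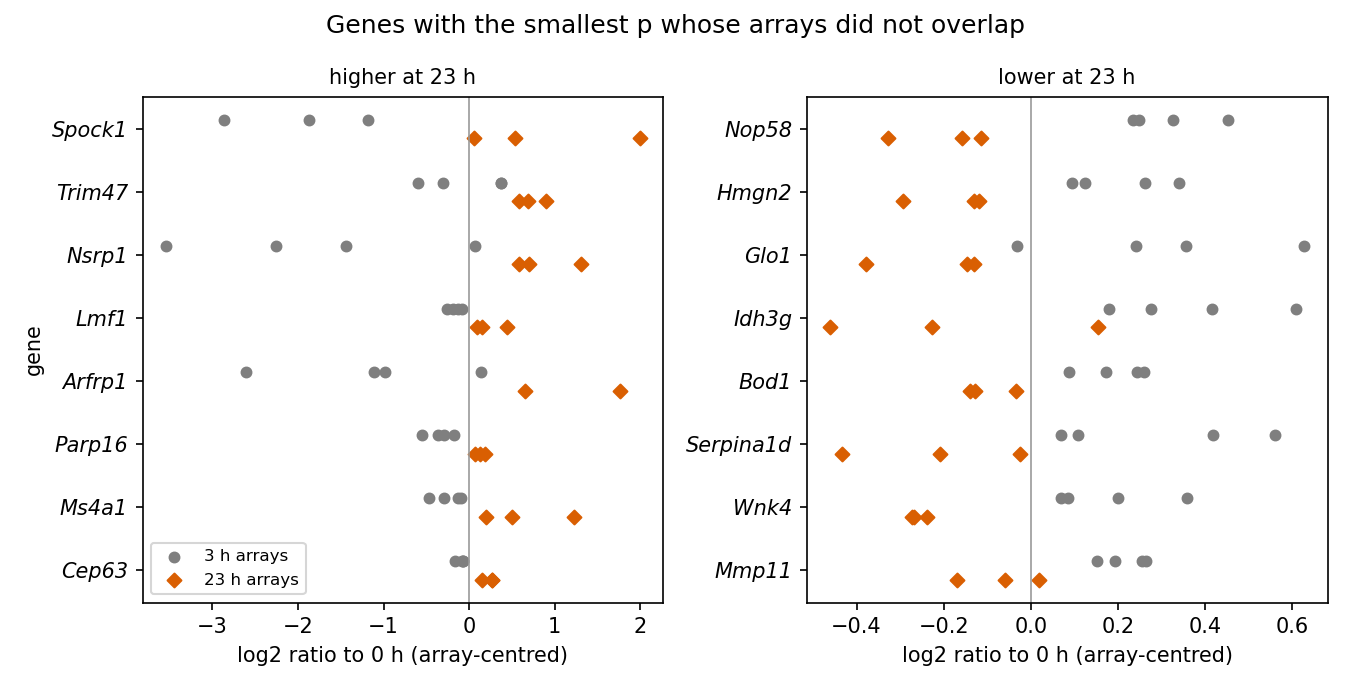
Log2 ratio to 0 h (x axis) of the 16 genes with the smallest p among those without overlap, 1 row per gene, 1 point per array, grey circles at 3 h and orange diamonds at 23 h; the scales of the 2 panels differ. The widest gap is that of Spock1, from -1.18 at 3 h to 0.05 at 23 h.

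The same rule in the fit without 23 h replicate 3 named further genes, in which 23 h replicate 3 had the opposite sign to replicates 1 and 4. Orc6, of the origin recognition complex, stood at 0.71, -0.46 and 0.40 on replicates 1, 3 and 4, Psma1, a proteasome subunit, at 0.65, -0.49 and 0.53, and Angel2, an RNA phosphatase, at 1.003, -0.18 and 0.73. Dhx57, a helicase, C1qtnf6, a secreted C1q family protein, and Dusp1, which inactivates MAP kinases, had differences of 0.46, 0.54 and 0.42 without that array and 0.27, 0.37 and 0.25 with it. Tipin, of the replication fork, stood at 1.14, 1.83 and 0.67 on 3 arrays at 3 h and at -1.11, 0.57 and -0.95 at 23 h, a difference of -1.67 (SE 0.49). It did not overlap even with replicate 3. Uqcrc2, of respiratory complex III, differed by -0.55 without replicate 3 and by -0.31 with it.

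Among the regulators named in every case, Cish, an inhibitor of cytokine signalling that STAT5 induces, stood at -0.41, -0.67, -0.31 and -0.28 at 3 h and at -0.68, 0.25 and -0.42 at 23 h. Its difference was 0.096, and -0.13 without 23 h replicate 3. Mcl1, a survival protein, differed by 0.18 without overlap, and by 0.12 without 23 h replicate 3. Klf1, the red-cell factor, differed by -0.17 and Klf2 by -0.15 (-0.25 without 23 h replicate 3). Esr1, the oestrogen receptor that tamoxifen binds, differed by 0.047 (SE 0.09, and 0.11 without 23 h replicate 3), with values from -0.21 to 0.10 at 3 h and from -0.16 to 0.10 at 23 h. Clk4, a splicing kinase, and Smc4, of condensin, differed by 0.16 and 0.063, and both by 0.31 without 23 h replicate 3.

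The medians of the other lists lay close to 0 with all arrays. They were 0.078 for interleukin-3 and STAT5 targets (-0.027 without 23 h replicate 3) and 0.068 for apoptosis regulators (0.12 without that array). They were 0.074 for ribosomal proteins, 0.020 for oxidative phosphorylation and -0.045 for the proteasome. Cell cycle lists stood at -0.014 for S phase, and 0.076 without 23 h replicate 3, and at -0.025 for G2 and M. Chaperones had -0.018, splicing factors -0.0011 and oestrogen receptor targets -0.039. None of their members was called with all arrays or without 23 h replicate 3.

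Lineage markers outside the granule list had medians near 0. They were -0.029 for 13 progenitor markers, -0.00077 for 13 monocyte and macrophage genes, 0.029 for 7 mast cell and basophil genes and -0.058 for 10 erythroid genes. They were 0.049 for 8 megakaryocyte, 0.057 for 10 lymphoid, 0.028 for 15 pluripotency and 0.0060 for 22 fibroblast genes. Hba-a1, alpha globin, whose 2 copies cannot be told apart, differed by 0.17, with 3 h values from -0.41 to -0.11 and 23 h values of -0.45, -0.01 and 0.19. Csf2rb2, a receptor subunit for interleukin-3, stood at -0.66, 0.56 and -0.44 on 23 h replicates 1, 3 and 4, the split seen in the granule genes.

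**Figure D5:**
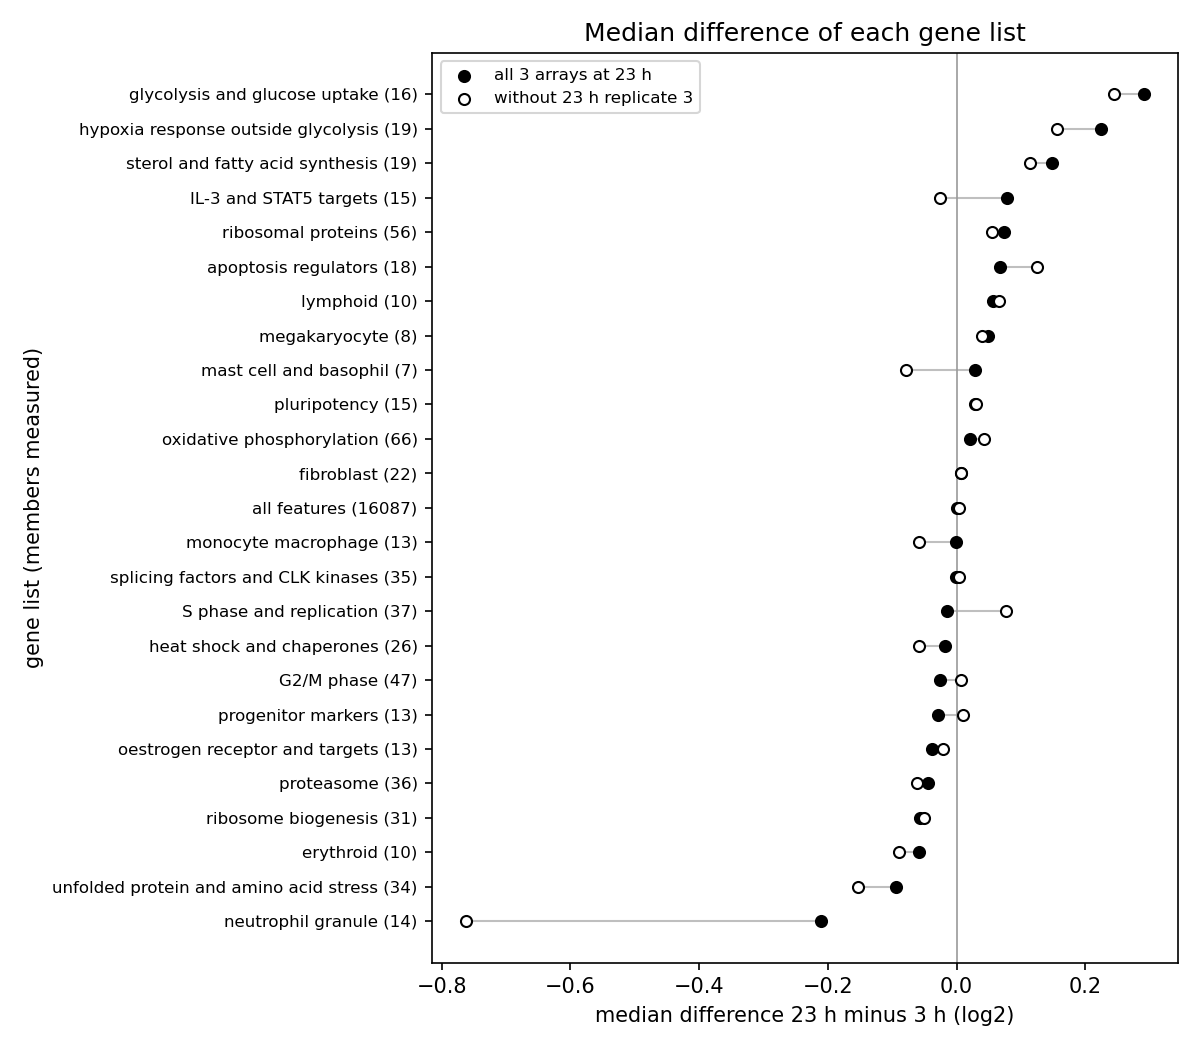
Median difference of 23 h minus 3 h in log2 (x axis) for each gene list and for all features (y axis, with the number measured), filled with all 3 arrays at 23 h and open without 23 h replicate 3. Glycolysis lies at 0.29 and 0.24, and the neutrophil granule list moves from -0.21 to -0.76.

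Within dyes, the comparison of the single Cy5 array at 23 h with the Cy5 arrays at 3 h and the same within Cy3 had the same sign for 50.5% of 16060 features. Taking only 23 h replicate 4 as the Cy3 array, it was 55.2%, and with replicate 3 only it was 46.8%. All 14 granule genes had the same sign in both dyes with replicate 4, and 3 of 14 with replicate 3. For the hypoxia list, 12 of 19 had the same sign with replicate 4, 13 of 19 with replicate 3 and 11 of 19 with both together. For the glycolysis list it was 11 of 16 with either replicate alone and 10 of 16 with both together. With both together it was 11 of 19 for the sterol list, 16 of 34 for the stress list and 10 of 31 for the ribosome biogenesis list.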

How the data were processed

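Both RNAs of an array were made into cDNA and coupled to the dyes Cy3 and Cy5, per the labels' protocols. The authors deposited 1 value per probe and array for 20205 probes, read here as log2 ratios; normalization, base and numerator: not given in the sources used here. Absolute values above 10 (8 to 24 per array among the 7 compared, repeats of 1 value) were set to missing, each array was centred on its median, and probes of 1 gene were averaged (2969 genes), giving 16148 features. Of the probes, 13891 had 1 gene symbol in the platform annotation, 5 several and 6309 none, and the latter were kept as probes. A feature needed values on 3 arrays at 3 h and 2 at 23 h. No spot intensities were used. Precision is limited by the number of arrays.

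limma 3.58.1 in R 4.3.3 was fitted to the 15 time-course arrays with a mean per time and a term for the dye of the own RNA, with empirical Bayes moderation and Benjamini-Hochberg adjustment at 0.05. The code was tested on simulated data. The lists, the members and the comparison were chosen with earlier results of these data known.

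Genes were named by rule: the 8 smallest p in each direction among genes whose arrays do not overlap, with all arrays and without 23 h replicate 3, the member with the smallest p in each direction of each list described, and 18 genes always named. Chosen after values were seen were the 6 lists described of 24, the 2 motifs, the 4 promoters, the genes called only in fits without arrays in doubt, and Fam162a, Slc2a3, Aldoa, Gapdh, Pkm, Mmp8, Lcn2, S100a8, S100a9 and the other list members given with a difference. Alternatives were other array sets, signs, scalings, weights, single dyes (with 2 arrays at 3 h and 1 or 2 at 23 h as the minimum) and arrays left out in turn.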

Additional observations from a re-analysis of the deposited data

Results flagged for a closer look

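Of 92 genes and lists considered at 3 h, 6 had 1 array far from the rest by Dixon's test, where chance marks about 1 in 20. Spock1 and Tipin are among the 92 but had values on only 3 arrays at 3 h, so they could not be tested. Fam162a stood at -1.191 on 3 h replicate 3, with the next value at -0.579, and Slc2a3 at -1.029 on replicate 4, next to -0.465. Probe 1098 stood at -0.575 on replicate 2, above the next value of -1.269. Klf1 stood at -0.177 on replicate 2, with the next at 0.169, Mcl1 at -0.2885 on replicate 2, next to -0.218, and Cep63 at -0.17 on replicate 1, next to -0.081. The 3 arrays at 23 h are too few for this test.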

How the results depend on the processing

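With limma, 0 features were called with all arrays (878 at an unadjusted p under 0.05). The count was 3 without 7 h replicate 4, 13 without both arrays in doubt, 1 with the sign of 23 h replicate 3 changed, 21 with both of those signs changed (chosen after seeing the data), and 12 within Cy5 arrays, where 23 h has 1 array assumed to vary like the rest. It was 0 in all other fits run, and 0 to 3 when 1 array was left out. With a replicate block the count was 0 (697 at an unadjusted p under 0.05); deviations of same-numbered arrays correlated at 0.014, -0.062 and -0.010 for replicates 1, 3 and 4, so the numbers were not taken as pairs. With the sign of every Cy3 array changed, list medians were -0.14 for glycolysis, -0.20 for hypoxia and -0.064 for sterol genes, and without 23 h replicate 3 as well (chosen after seeing the data) -0.080, -0.086 and -0.087. In the fit to Cy3 arrays only they were 0.40 for hypoxia, 0.22 for sterol and 0.0065 for stress genes. In the fit to Cy5 arrays only they were 0.047 for sterol and -0.20 for stress genes. The sterol median was 0.22 with no centring and 0.087 to 0.15 when 1 array was left out. Of 68 genes, 17 kept 1 direction throughout, and 115 of 1751 alternative values had the other direction. With every Cy3 sign changed these were Spock1 -0.42, Arfrp1 -0.46, Ms4a1 -0.41, Cep63 -0.089, Hmgn2 0.012, Bod1 0.028, Wnk4 0.014, Mmp11 0.087, Pgm1 -0.29, Bnip3 -0.35, Scd2 -0.064, Fcnb 0.29, Trib3 -0.21, Ndrg1 -0.27, Selenbp1 -0.096, Selenbp2 -0.46, Tpi1 -0.059, Pgam1 -0.23, Fdps -0.18, Cish -0.14, Mcl1 -0.029, Klf1 0.14, Hba-a1 -0.33, Fam162a -0.20, Slc2a3 -0.40, Aldoa -0.17, Gapdh -0.13, Pkm -0.033 and probe 1098 -0.32. With 23 h replicate 3 left out as well they were Cep63 -0.037, Mmp11 0.081, C1qtnf6 -0.043, Dusp1 -0.064, Psma1 -0.053, Mpo 0.058, Elane 0.13, Pgm1 -0.18, Bnip3 -0.22, Scd2 -0.038, Fcnb 0.49, Ndrg1 -0.041, Selenbp2 -0.22, Tpi1 -0.096, Pgam1 -0.20, Fdps -0.01, Cish -0.0047, Klf1 0.078, Lyz2 0.11, Hba-a1 -0.36, Smc4 -0.14, Esr1 -0.0396, Fam162a -0.086, Slc2a3 -0.28, Aldoa -0.033, Camp 0.052, Ngp 0.0025, Mmp8 0.15, Glud1 -0.034, Hs1bp3 -0.079, Slc27a5 -0.052 and probe 1098 -0.15. Within Cy3 arrays they were Orc6 -0.065, Mpo 0.032, Elane 0.0905, Hmox1 0.11, Lyz2 0.19, Smc4 -0.047, Ltf 0.077, Camp 0.23, Ngp 0.20, Mmp8 0.11, Lcn2 0.18, S100a8 0.18, S100a9 0.20, Glud1 -0.38 and Hs1bp3 -0.14, and within Cy5 arrays Pgam1 -0.013, Cish -0.14 and Hba-a1 -0.21. With the sign of 23 h replicate 3 changed they were Elovl6 0.069, Trib3 -0.018 and Cish -0.062, and with that of 7 h replicate 4 too Elovl6 0.062 and Cish -0.049. With no centring they were Elovl6 0.0196 and Lcn2 0.00997. Cish was -0.13 without both arrays in doubt, and also with only the 6 arrays other than 23 h replicate 3 (chosen after seeing the data). Leaving out 1 array gave ranges of Mpo -0.81 to 0.089, Elane -0.85 to 0.22, Cish -0.13 to 0.26, Lyz2 -0.77 to 0.30, Clk4 -0.08 to 0.31, Smc4 -0.19 to 0.31, Esr1 -0.017 to 0.11, Ltf -1.08 to 0.071, Camp -0.96 to 0.29, Ngp -0.92 to 0.21, Mmp8 -0.96 to 0.26, Lcn2 -0.40 to 0.15, S100a8 -0.63 to 0.12, S100a9 -0.49 to 0.15, Glud1 -0.42 to 1.15 and Hs1bp3 -0.22 to 0.93. Beyond the arrays and signs named, the cause was not tested.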
